A study of Homo sapiens with 10 samples.

Results

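Desmosomes are spot-like junctions that tie the intermediate filaments of neighbouring epithelial cells together, and 10 genes that encode their parts were followed here in CCAR1 knockout and parental cells. They were picked by gene name, with the difference between the genotypes already known, from the 62700 genes of the series: the desmosomal cadherins DSC2, DSC3 and DSG2, the armadillo proteins JUP, PKP1, PKP2, PKP3 and PKP4, the plakin DSP, and the tetraspan protein PERP. All 10 had a row in the deposited counts, and 8 of them passed the filter on low counts and were tested, while DSC2 and PKP1 did not pass it.

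The samples were 5 libraries of CCAR1 knockout RPE p53-/- cells and 5 of parental RPE p53-/- cells, a human line from retinal pigment epithelium. Both genotypes lack p53 and grew in one kind of medium with serum, and poly(A) RNA was sequenced to look for effects of losing CCAR1 across the genome. Neither the number of knockout clones nor separate cultures are stated, so the spread between libraries may be technical, and what separates the genotypes may be specific to the cells that were picked. In such bulk RNA, fewer cells that express a gene and less of its RNA per cell cannot be told apart.

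In a desmosome, desmogleins and desmocollins reach across the gap between 2 cells and bind each other. Plakoglobin, the product of JUP, and the plakophilins bind the cadherin tails inside the cell, and desmoplakin, the product of DSP, links them to intermediate filaments. Retinal pigment epithelium is better known for tight and adherens junctions, while the skin and the heart depend on desmosomes, and mutations of DSP, PKP2, DSG2, DSC2 and JUP are known from arrhythmogenic cardiomyopathy.

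DSC3, DSG2 and DSP carry the contrasts described further on, since the first and the second lie in the same cadherin cluster and differ in their change, and the third is the filament linker. The 250 bases before the RefSeq start of each (GRCh38.p14) are shown for DSC3 (minus strand, chr18:31042743-31042992), DSG2 (plus strand, chr18:31497927-31498176) and DSP (plus strand, chr6:7541421-7541670). Each reads from 5′ to 3′ on the gene's strand, with capitals for the E-box letters CAGGTG or, on the other strand, CACCTG, a motif known to be bound by SNAI and ZEB repressors.
DSC3: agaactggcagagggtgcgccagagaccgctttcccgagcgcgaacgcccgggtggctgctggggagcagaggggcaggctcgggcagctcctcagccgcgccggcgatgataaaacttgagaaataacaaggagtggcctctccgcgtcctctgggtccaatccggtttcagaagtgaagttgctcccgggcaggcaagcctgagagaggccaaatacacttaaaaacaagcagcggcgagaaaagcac
DSG2: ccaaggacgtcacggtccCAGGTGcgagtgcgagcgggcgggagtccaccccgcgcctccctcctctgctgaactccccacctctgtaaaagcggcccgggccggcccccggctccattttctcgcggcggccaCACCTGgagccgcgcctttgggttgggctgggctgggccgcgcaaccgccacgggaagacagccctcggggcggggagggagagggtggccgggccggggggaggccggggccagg
DSP: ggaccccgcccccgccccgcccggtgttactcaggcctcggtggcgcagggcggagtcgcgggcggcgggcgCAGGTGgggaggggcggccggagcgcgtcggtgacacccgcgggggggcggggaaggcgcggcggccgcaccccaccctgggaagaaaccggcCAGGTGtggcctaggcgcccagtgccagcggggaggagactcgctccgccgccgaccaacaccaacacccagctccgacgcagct
The DSC3 window held 0 of these E-boxes, that of DSG2 held 2 and that of DSP held 2, where 17.5% of 35116 promoter windows of this length held at least 1 and 2.53% held 2 or more. RefSeq windows were matched for 8 of the 10 genes, all but PKP2 and PKP3, and 4 of their 11 windows held the motif. The motif was chosen after the levels were seen, and a match is a description of the letters. The DSC3 window had 18 CpG dinucleotides and 60.4% G and C, that of DSG2 had 26 and 75.2%, and that of DSP had 33 and 78%, against medians of 11 and 58% over all windows.

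Replicates 1 to 3 of each genotype, called shallow here, held 52595742 to 65202282 counts, and replicates 4 and 5, called deep, held 320578921 to 385449633. Levels are in CPM, counts scaled to a TMM-scaled library of 1000000 counts, and every mean ± SD is over n = 5 libraries. The targeted gene CCAR1 had 92.3, 95.6, 88.5, 126 and 126 CPM in knockout replicates 1 to 5 and 125, 133, 134, 173 and 173 CPM in parental replicates 1 to 5. The fitted fold put it at 71.5% of parental. The ranges overlapped at their edge, while within each depth each knockout library was below each parental one. Of 8 markers of retinal pigment epithelium 4 were tested, and edgeR called 2 higher and 0 lower in knockout cells, where 36.6% of all genes tested were called. OTX2 lay between 14.9 and 18.3 CPM in knockout and between 10.06 and 11.8 CPM in parental libraries. BEST1 lay between 1.452 and 2.569 CPM in knockout and between 1.196 and 1.654 CPM in parental libraries, and these ranges overlapped. PMEL ranges also overlapped, at 0.345 to 0.931 CPM in knockout and 0.209 to 0.614 CPM in parental libraries. MITF lay between 30.9 and 47.1 CPM over both genotypes, while RPE65, TYR, TYRP1 and RLBP1 were below 0.25 CPM in each library. TYRP1 went the other way, at 0.0186 to 0.0577 CPM in knockout and 0.124 to 0.248 CPM in parental libraries. The ranges of RPE65, TYR and RLBP1 overlapped. Of the simple epithelial markers, KRT8 and KRT18 lay between 118 and 249 CPM, and CDH1 and EPCAM below 1 CPM in each library. Of 3 mesenchymal markers 2, FN1 and VIM, were called higher in knockout cells by edgeR. CDH2 went the other way, with 127 to 180 CPM in knockout and 163 to 210 CPM in parental libraries. Its log2 fold change of -0.26 did not pass (edgeR adjusted p = 0.125). With replicate as a further term in the model CDH2 passed as lower (edgeR adjusted p = 1.77e-04). FN1, fibronectin, lay between 2632 and 3676 CPM in knockout and between 1021 and 1162 CPM in parental libraries, and VIM between 10455 and 11458 CPM in knockout and between 8909 and 9566 CPM in parental libraries. The summed level of the 3, with CDH2, was 13914 to 14311 CPM in knockout and 10255 to 10862 CPM in parental libraries, and its part in the desmosome changes was not tested.

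Across the 8 genes tested, 4 were lower in knockout cells, DSC3, PKP2, DSP and PKP4, and 1, PKP3, was higher, at an adjusted p of 0.05 in edgeR's quasi-likelihood test. Of all 18979 genes tested, 36.6% passed this threshold, with 16.9% lower and 19.7% higher. Blocking on replicate added JUP as lower and DSG2 as higher, giving 5 and 2, in a model that called 30.1% of all genes lower and 31.1% higher. A depth term gave the same 5 and 2 beside 64% of all genes called (31.3% lower), while the shallow libraries alone called 52.7% and the deep ones alone 57% of all genes. Because the genes were chosen with this contrast known, their changes are given as a description and no p is attached to them. The same 5 genes had knockout and parental ranges that did not overlap, as did 30.6% of all genes tested. The median log2 fold change over the 8 genes was -0.77, beside 0.02 over all genes tested.

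**Figure D1:**
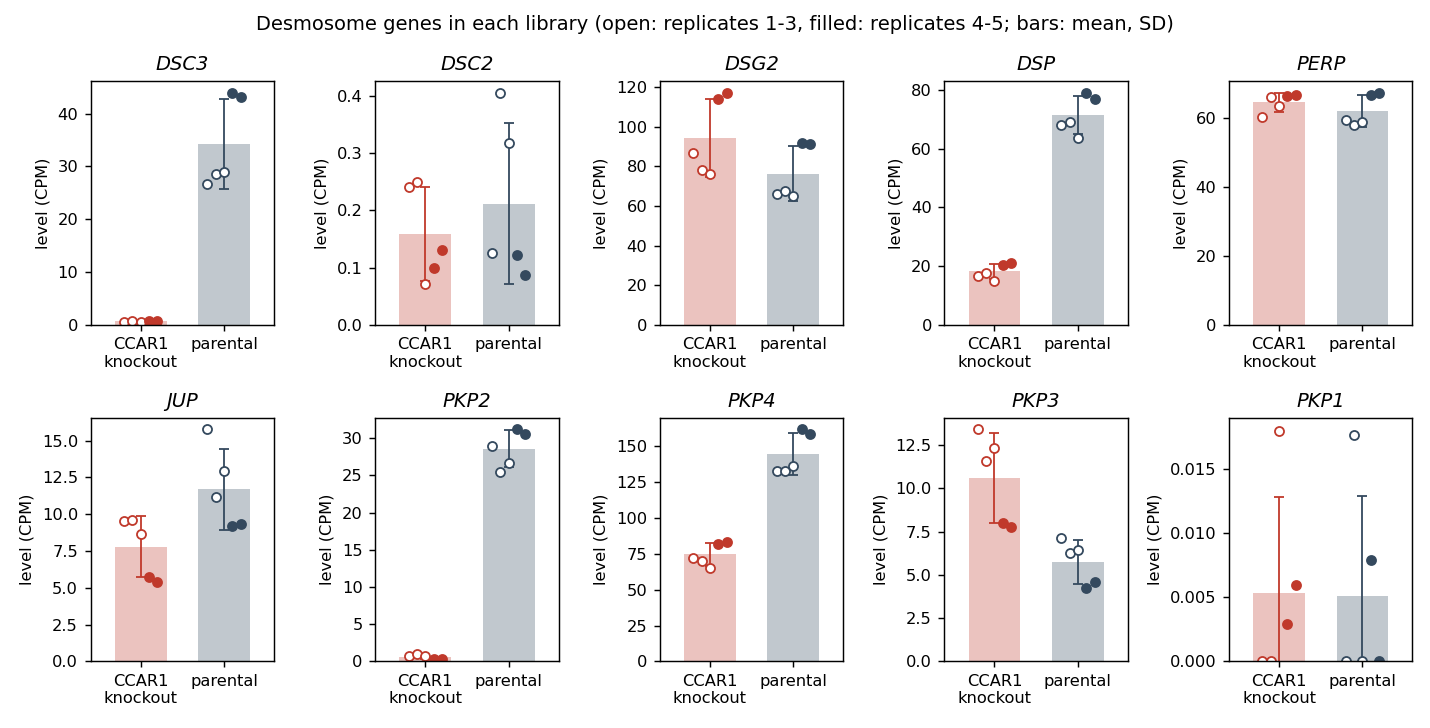
Levels in CPM (vertical axes, each from 0) of the 10 desmosome genes in CCAR1 knockout and parental libraries; points are libraries, open for replicates 1 to 3 and filled for replicates 4 and 5, and bars with error lines are mean and SD of 5 libraries. Knockout libraries lay below 1 CPM for DSC3 and PKP2, where each parental library was above 25 CPM.

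Desmocollin 3, the cadherin DSC3 (ENSG00000134762.17, chr18:30990008-31042815, minus strand), is best known from the basal layers of stratified epithelia. It had 0.577, 0.616, 0.593, 0.767 and 0.678 CPM in knockout replicates 1 to 5, against 26.6, 28.5, 29.03, 43.98 and 43.1 CPM in parental replicates 1 to 5. Each knockout library was far below each parental one, and within both genotypes the deep libraries were the higher ones. DSC3 fell to 1.92% of parental by the fitted fold, a log2 fold change of -5.70 (standard error 0.20). Of the 18979 genes tested, 17, or 0.0896%, passed the threshold and were at least 32-fold lower, DSC3 and PKP2 among them. This cut lies below their own fitted falls of 52.1-fold and 49.8-fold, and both were chosen with the contrast known. The share is therefore a description and gives no support. The knockout libraries still held 31.04, 32.01 and 33.01 estimated counts of DSC3 in the shallow set and 263 and 228 in the deep set.

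Desmoglein 2, the cadherin DSG2 (ENSG00000046604.14, chr18:31498043-31549008, plus strand), is the desmoglein known from simple epithelia and heart. It had 86.8, 78.2, 76.1, 114 and 117 CPM in knockout replicates 1 to 5 and 66.3, 67.5, 64.96, 91.6 and 91.1 CPM in parental replicates 1 to 5. The ranges overlapped, as the deep parental libraries reached above the shallow knockout ones, while within each depth each knockout library was above each parental one. Its log2 fold change of 0.31 (standard error 0.16) did not pass the threshold, whereas blocking on replicate gave 0.30 (standard error 0.039), which passed. Desmocollin 2, the widespread desmocollin DSC2, was detected at a low level and did not pass the filter on low counts. It had 0.242, 0.250, 0.0719, 0.0992 and 0.131 CPM in knockout libraries and 0.126, 0.406, 0.318, 0.122 and 0.0879 CPM in parental ones. These ranges overlapped, and DSC2 had 108 counts over the 5 knockout and 123 over the 5 parental libraries.

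The other desmosomal cadherins were nearly silent in both genotypes. DSG3, a desmoglein of stratified epithelia, had 29.4 estimated counts over all knockout and 29.7 over all parental libraries. DSG1, the desmoglein of the upper epidermis, had 1 count over the knockout and 0 over the parental libraries, and DSC1, its desmocollin counterpart, had 3.003 over the knockout and 1.00004 over the parental libraries. DSG4, known from hair, had 0 counts in both, which allows up to 0.00357 CPM in the pooled knockout and 0.00343 CPM in the pooled parental libraries, for counting error only.

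The cadherins sit next to each other on chromosome 18, from 30990008 to 31549008 (hg38). This 559 kb span and 2 Mb on either side held 63 genes, of which 10 were tested and 8 were not among the desmosome genes. All 8 lay beyond DSG2, and no gene was tested in the 2 Mb beyond DSC3. Of these 8 neighbours 1 was called higher and 0 lower by edgeR, or 12.5% beside 36.6% of all genes, and the counts were the same at an unadjusted p under 0.05 and by DESeq2. With the replicate block 1 was higher and 3 were lower, beside 61.2% of all genes called. Their median log2 fold change was 0.06. The 1 called was RNF125, a ubiquitin ligase, with 0.424 ± 0.0746 CPM in knockout and 0.232 ± 0.101 CPM in parental cells (log2 fold change 0.88 ± 0.30 SE; edgeR adjusted p = 0.0408). It was named after its values were seen, and its call was lost in 8 of the 10 fits that left out 1 library (all but those without parental replicate 1 or 3), where the adjusted p was 0.0515 to 0.0896. On one side the nearest gene tested was TTR, transthyretin, 0.008 Mb beyond DSG2. TTR had 0.489 ± 0.437 CPM in knockout and 0.325 ± 0.210 CPM in parental cells (log2 fold change 0.60 ± 0.73 SE; edgeR adjusted p = 0.583), and its log2 fold change was -0.046 without knockout replicate 2. On the other side it was CDH2, N-cadherin, a classical cadherin 2.81 Mb beyond DSC3. CDH2 had 150.5 ± 24.2 CPM in knockout and 180.9 ± 23.6 CPM in parental cells (log2 fold change -0.26 ± 0.12 SE; edgeR adjusted p = 0.125, and 1.77e-04 with the replicate block). Positions are GENCODE 29 gene spans on hg38. The protein-coding genes tested on chromosome 18 had a median log2 fold change of -0.06 over 187 genes.

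**Figure D2:**
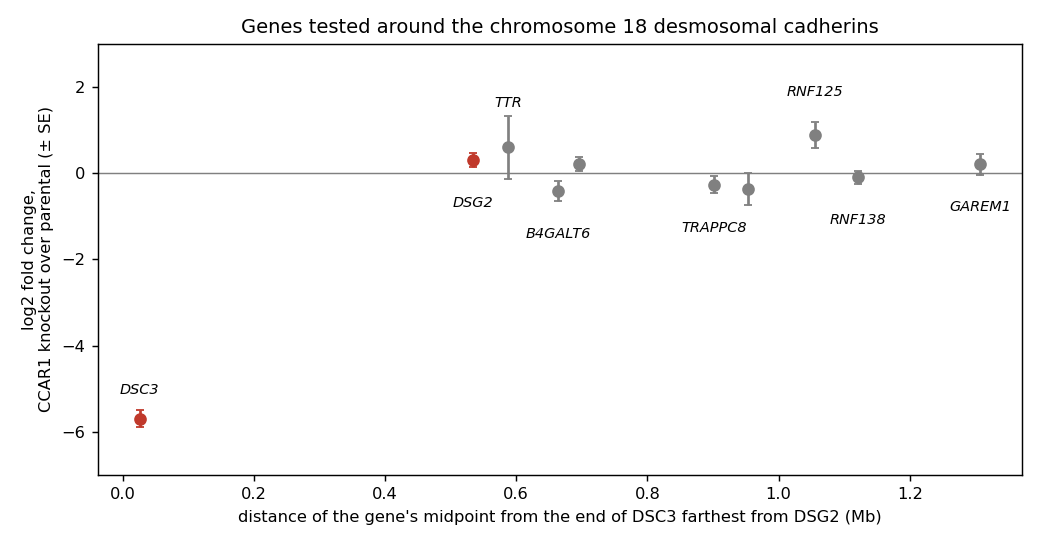
Log2 fold change of CCAR1 knockout over parental cells (vertical axis, with its standard error) of the 10 genes tested within 2 Mb of the chromosome 18 cadherin span, against distance in Mb from the far end of DSC3; red marks DSC3 and DSG2, grey the neighbours. DSC3 lies at -5.70, DSG2 at 0.31, and the neighbours, all on the DSG2 side, between -0.41 and 0.88.

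Desmoplakin, DSP (ENSG00000096696.16, chr6:7541575-7586717, plus strand), anchors keratin or desmin filaments at the junction. It had 16.7, 17.6, 15.0, 20.4 and 21.1 CPM in knockout replicates 1 to 5 and 68.0, 69.2, 63.5, 79.1 and 76.8 CPM in parental replicates 1 to 5. The highest knockout library was far below the lowest parental one. By the fitted fold DSP fell to 25.5% of parental (log2 fold change -1.97, standard error 0.11). Protein-coding genes of chromosome 6 had a median log2 fold change of -0.32, and with that median subtracted DSP was at -1.65. DSP-AS1, a divergent non-coding gene that ends 236 bases before DSP in the annotation, had 0.461 ± 0.0845 CPM in knockout and 1.19 ± 0.140 CPM in parental cells (log2 fold change -1.39 ± 0.16 SE; edgeR adjusted p = 7.72e-05). The sources used here do not give whether counting used strand, but these 2 genes do not overlap.

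PERP (ENSG00000112378.12, chr6:138088505-138107511, minus strand), on the other arm of chromosome 6, encodes a tetraspan membrane protein needed for stable desmosomes in mouse skin, and it is a target of p53 and p63. It had 60.1, 66.0, 63.4, 66.2 and 66.6 CPM in knockout replicates 1 to 5 and 59.3, 58.04, 58.7, 66.5 and 67.3 CPM in parental replicates 1 to 5. The ranges overlapped almost fully, with a log2 fold change of 0.06 (standard error 0.066) that did not pass. With the chromosome 6 median subtracted it was 0.38 (standard error 0.066) and passed as higher, and in the deep libraries alone it was -0.03. PERPP2, a PERP pseudogene that could share reads with it, had 0.245 ± 0.128 CPM in knockout and 0.426 ± 0.117 CPM in parental cells.

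Plakoglobin, JUP (ENSG00000173801.17, chr17:41754604-41786931, minus strand), a close relative of beta-catenin, is shared by desmosomes and adherens junctions. It had 9.57, 9.58, 8.66, 5.74 and 5.39 CPM in knockout replicates 1 to 5 and 15.8, 11.2, 12.9, 9.16 and 9.36 CPM in parental replicates 1 to 5. Within each depth the knockout libraries were the lower ones, but the shallow knockout libraries reached the deep parental ones. The log2 fold change was -0.59 (standard error 0.21) and just missed the threshold. With the replicate block it was -0.61 (standard error 0.078) and passed, and with the chromosome 17 median of -0.28 subtracted it was -0.31 and did not pass. JUP was also past the threshold with DESeq2's Wald test, DESeq2 size factors, no filter on low counts, a depth term and in either depth alone. The same held in 4 of the 10 fits without 1 library, those without knockout replicate 1 or 2 or parental replicate 4 or 5. As for the other desmosome genes, which fits passed is a description.

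Among the plakophilins, PKP2 (ENSG00000057294.18, chr12:32790745-32896840, minus strand), the plakophilin of simple epithelia and heart, fell the most. It had 0.745, 0.962, 0.683, 0.365 and 0.327 CPM in knockout replicates 1 to 5 and 28.9, 25.5, 26.7, 31.2 and 30.6 CPM in parental replicates 1 to 5. The genotypes were far apart, and in knockout cells the shallow libraries were the higher ones. The fitted fold put PKP2 at 2.01% of parental (log2 fold change -5.64, standard error 0.31). PKP4 (ENSG00000144283.23, chr2:158456964-158682879, plus strand), also called p0071, which is found at both desmosomes and adherens junctions, had 72.4, 69.7, 65.4, 82.1 and 83.4 CPM in knockout replicates and 133, 133, 136, 162 and 158 CPM in parental replicates 1 to 5. The ranges were apart, and PKP4 was fitted at 51.6% of parental (log2 fold change -0.95, standard error 0.093). PKP4-AS1, an antisense gene whose span overlaps that of PKP4, was at 0.135 ± 0.0244 CPM in knockout and 0.2196 ± 0.0547 CPM in parental cells, far below PKP4 itself.

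PKP3 (ENSG00000184363.10, chr11:392614-404908, plus strand), a plakophilin of most epithelia that can bind all desmosomal cadherins, was the 1 gene that rose. It had 13.4, 11.6, 12.3, 8.0 and 7.75 CPM in knockout replicates 1 to 5 and 7.15, 6.29, 6.47, 4.24 and 4.58 CPM in parental replicates 1 to 5. Each knockout library was above each parental one, the deep knockout libraries only narrowly. The fitted level was 1.85 times the parental one (log2 fold change 0.89, standard error 0.20). PKP1, the plakophilin of the upper epidermis, had 4 counts over all knockout and 4 over all parental libraries, close to the limit of detection in both.

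**Figure D3:**
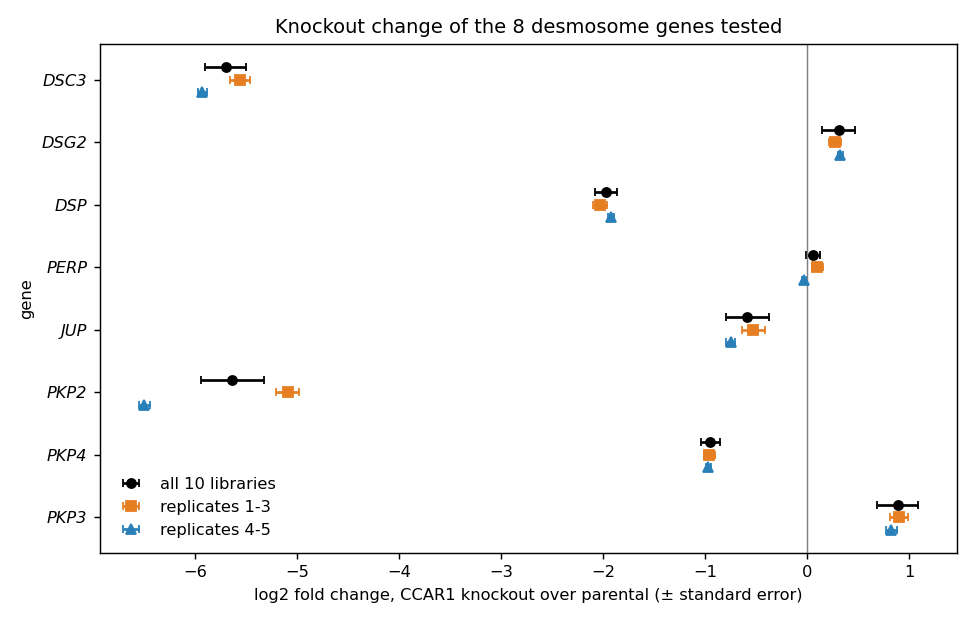
Log2 fold change of CCAR1 knockout over parental cells (horizontal axis, with standard errors) for the 8 desmosome genes tested, from all 10 libraries, from replicates 1 to 3 and from replicates 4 and 5. The 3 estimates lie close together except for PKP2, at -5.09 in replicates 1 to 3 and -6.50 in replicates 4 and 5.

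The make-up of the junction genes was compared per length, as CPM per kb of merged exon length in the GENCODE 29 basic set. In knockout cells DSG2 came first at 15.3 ± 3.20, then PERP at 15.03 ± 0.640 and PKP4 at 12.6 ± 1.32 CPM per kb, with neighbouring ranges that overlapped. PKP3 followed at 3.78 ± 0.921, apart from JUP at 2.10 ± 0.558, which overlapped DSP at 1.85 ± 0.263. PKP2 at 0.139 ± 0.0604 and DSC3 at 0.0916 ± 0.0110 overlapped each other. In parental cells PKP4 came first at 24.3 ± 2.42, apart from PERP at 14.4 ± 1.06, which overlapped DSG2 at 12.3 ± 2.23 CPM per kb. DSP at 7.28 ± 0.661, PKP2 at 6.45 ± 0.554, DSC3 at 4.85 ± 1.21, JUP at 3.15 ± 0.742 and PKP3 at 2.05 ± 0.451 followed, each overlapping the next. DSC2 and PKP1 came last in both genotypes, and the order was the same with the longest transcript as the length.

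Among the 3 cadherins, DSG2 held 99.3% ± 0.107 of the CPM per kb in knockout and 71.9% ± 1.49 in parental cells. The DSC3 share was 0.606% ± 0.0756 in knockout and 28.01% ± 1.53 in parental cells, and it was below 1% in each knockout and above 26% in each parental library. The summed cadherin level was 15.4 ± 3.20 CPM per kb in knockout and 17.2 ± 3.42 in parental cells, with ranges that overlapped, 12.4 to 19.1 in knockout and 14.5 to 21.04 in parental cells. Among the plakophilins, PKP4 held 76.1% ± 6.21 in knockout and 74.02% ± 2.002 in parental cells. PKP2 held 0.849% ± 0.382 in knockout and 19.6% ± 0.678 in parental cells, while PKP3 held 23.01% ± 5.88 in knockout and 6.33% ± 1.78 in parental cells. The summed plakophilin level was 16.5 ± 0.648 CPM per kb in knockout and 32.8 ± 2.49 in parental cells, with ranges apart. As shares of CPM without length, DSC3 was 0.690% ± 0.0858 of the cadherins in knockout and 30.7% ± 1.62 in parental cells, and PKP2 0.732% ± 0.345 of the plakophilins in knockout and 16.0% ± 0.636 in parental cells.

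**Figure D4:**
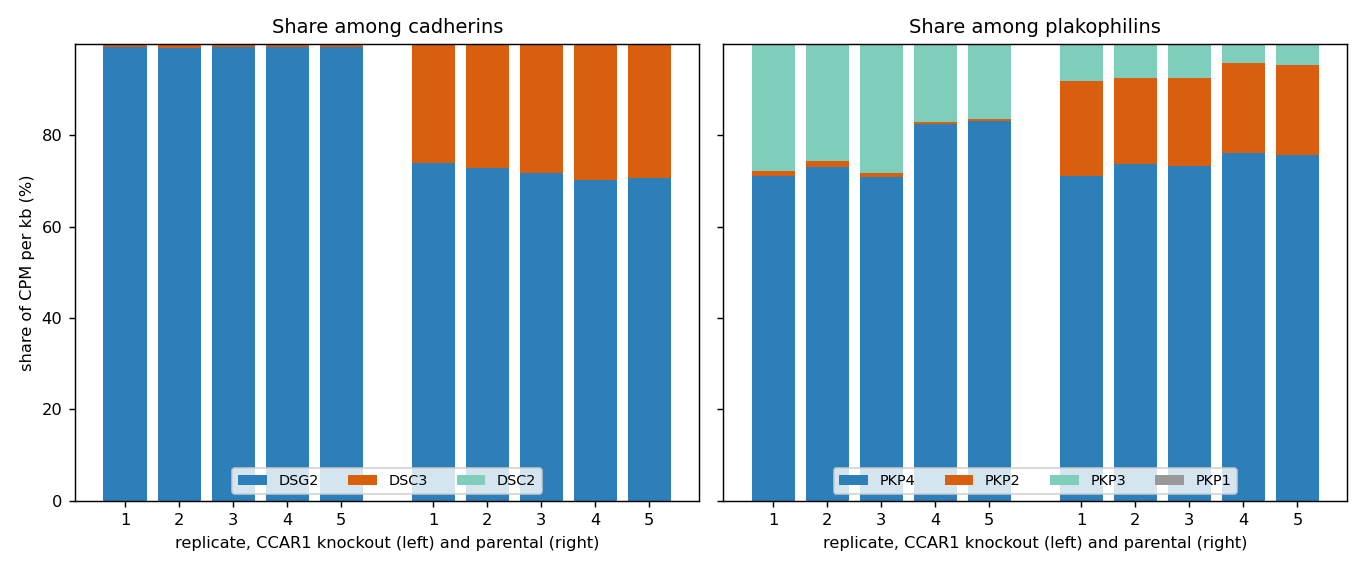
Share of CPM per kb (vertical axis, %) of each desmosomal cadherin (left) and each plakophilin (right) in each library, knockout replicates 1 to 5 left of parental replicates 1 to 5. DSG2 fills over 99% of the cadherin bars in knockout libraries, and PKP2 is at most 1.35% of the plakophilin bars there.

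Whether the knockout change itself differed between the shallow and the deep libraries was tested as an interaction of genotype and depth, a measure the choice of genes did not use. It passed for 1 of the 8 genes, PKP2, where 0.601% of all genes passed. The PKP2 fold change was 34.2-fold lower in knockout cells in the shallow libraries and 90.3-fold lower in the deep ones, a log2 difference of -1.39 (standard error 0.17, edgeR adjusted p = 0.00266). In knockout cells PKP2 averaged 0.796 CPM in the shallow and 0.346 CPM in the deep libraries, and in parental cells 27.05 and 30.9 CPM. The difference for DSC3 was -0.35 (standard error 0.14, edgeR adjusted p = 0.244), and for the other 6 genes the adjusted p ran from 0.366 for PERP to 0.992 for PKP4.

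The shallow libraries also held transcripts of other tissues. The summed level of 6 cardiac muscle markers, mostly MYH7, was 34.3 to 121 CPM in the shallow and 0.295 to 0.360 CPM in the deep knockout libraries, and 77.3 to 142 and 0.289 to 0.481 CPM in the parental ones. MYH7 alone was at 32.7 to 138 CPM in the shallow libraries, while TNNT2 and TNNI3 were at most 0.371 and 0.216 CPM. NPPA did not follow the sum, at 0.0372 to 0.194 CPM in the shallow and 0.160 to 0.208 CPM in the deep libraries. The sum therefore describes MYH7 more than the list. The sum of 5 skeletal muscle markers was 141 to 282 CPM in the shallow and 0.175 to 0.181 CPM in the deep knockout libraries, and 235 to 318 and 0.163 to 0.254 CPM in the parental ones. The erythroid and liver lists ran from 21.7 to 181 CPM and from 25.6 to 69.03 CPM in the shallow libraries, and from 0.0773 to 0.132 CPM and from 0.659 to 1.57 CPM in the deep ones. EPCAM, an epithelial adhesion molecule, was at 0.305 to 0.954 CPM in the shallow and 0.0157 to 0.0583 CPM in the deep libraries. Of 9 keratinocyte markers, LORICRIN was at 0 in all 10 libraries, and DSG1 and DSC1 were at 0 in each shallow library. KRT10 was between 56.04 and 73.9 CPM in the shallow and between 20.7 and 39.2 CPM in the deep libraries. The part of these transcripts in the PKP2 difference was not tested.

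Within genotypes, 7 of the 8 genes differed between the deep and the shallow libraries, beside 69.3% of all genes, of which 34.5% were higher and 34.9% lower in the deep ones. DSC3, DSG2, DSP, PKP4 and PERP were higher in the deep libraries, DSC3 the most with a log2 difference of 0.57 (standard error 0.062, edgeR adjusted p = 1.58e-06). JUP and PKP3 were lower in the deep libraries, each with a log2 difference of -0.63 (standard errors 0.083 and 0.059, edgeR adjusted p = 1.13e-05 and 4.01e-07). PKP2 did not pass (-0.07, standard error 0.20, edgeR adjusted p = 0.783).

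Genes around the desmosome were counted over 9 further lists, the other desmosomal cadherins among them. Their 79 genes, 63 of them tested, included 9 that rose and 20 that fell, which is 46.03% beside 36.6% of all genes. With the replicate block 15 rose and 33 fell, beside 61.2% of all genes. The median log2 fold change of the 63 was -0.22.

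The transcription factors that support or repress epithelial genes had 3 of 9 tested genes higher and 2 lower, or 55.6% called beside 36.6% of all genes. With the replicate block, which called 61.2% of all genes, 3 were higher and 4 lower. SNAI2, or Slug, a repressor of epithelial junction genes, was at 31.5 ± 1.30 CPM in knockout and 6.44 ± 0.760 CPM in parental cells (log2 fold change 2.29 ± 0.089 SE; edgeR adjusted p = 3.89e-08). Its relative SNAI1 was at 3.98 ± 0.615 CPM in knockout and 1.92 ± 0.151 CPM in parental cells (edgeR adjusted p = 5.97e-05). KLF5, an epithelial transcription factor, was at 0.745 ± 0.276 CPM in knockout and 7.82 ± 0.414 CPM in parental cells (log2 fold change -3.43 ± 0.24 SE; edgeR adjusted p = 2.42e-06). GRHL1, which activates the desmosomal cadherin gene DSG1 in mouse skin, was at 0.298 ± 0.0720 CPM in knockout and 0.541 ± 0.0715 CPM in parental cells (edgeR adjusted p = 0.00638). TWIST2 was also called higher, with a log2 fold change of 0.98 (edgeR adjusted p = 0.00696). TWIST1, ZEB2 and ZEB1 did not pass, at log2 fold changes of -0.54, -0.22 and 0.06. With the block TWIST1 and ZEB2 passed as lower, at -0.61 and -0.23 (edgeR adjusted p = 2.56e-04 and 0.00205), and ZEB1 did not pass, at 0.05. TP63, GRHL2 and GRHL3 were below the filter on low counts.

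Of 9 keratins and other intermediate filaments tested 1 rose and 2 fell, or 33.3%, which is near the 36.6% of all genes. With the block 1 rose and 4 fell, beside 61.2% of all genes called. VIM was at 10943 ± 431 CPM in knockout and 9222 ± 272 CPM in parental cells (edgeR adjusted p = 0.00238, and 0.123 with no filter on low counts). KRT80 was at 40.8 ± 0.698 CPM in knockout and 71.8 ± 8.76 CPM in parental cells, and KRT15 at 4.25 ± 0.448 and 8.77 ± 1.25 CPM (edgeR adjusted p = 2.70e-05 and 6.57e-05). KRT8 and KRT18, the keratins that pair in simple epithelia, did not pass, with log2 fold changes of -0.13 and -0.25 (standard errors 0.19 and 0.096). With the block both passed as lower, at -0.14 and -0.24 (edgeR adjusted p = 0.0254 and 0.00166). Of the 6 other plakins, which like DSP bind filaments, 0 rose and 1 fell in edgeR, or 16.7% beside 36.6% of all genes. With the block 1 rose and 2 fell, beside 61.2% of all genes called. At an unadjusted p under 0.05 there were 1 higher and 1 lower, and by DESeq2 0 higher and 1 lower. DST, dystonin, on chromosome 6, was at 189 ± 77.7 CPM in knockout and 350.5 ± 73.7 CPM in parental cells (log2 fold change -0.89 ± 0.26 SE; edgeR adjusted p = 0.0225), and its adjusted p was 0.129 with the chromosome median subtracted, 0.0506 with no filter on low counts and 0.0504 to 0.054 without knockout replicate 2, parental replicate 4 or parental replicate 5.

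Of the catenins and p120 relatives, 0 of 6 rose and 2 fell in edgeR, or 33.3% beside 36.6% of all genes. The counts were the same at an unadjusted p under 0.05 and by DESeq2. With the block, which called 61.2% of all genes, all 6 passed, 3 higher and 3 lower. CTNNA1, alpha-catenin, was at 343 ± 32.1 CPM in knockout and 403 ± 23.04 CPM in parental cells (log2 fold change -0.23 ± 0.074 SE; edgeR adjusted p = 0.0318), and the alpha-catenin relative CTNNAL1 at 107 ± 17.9 and 167 ± 27.9 CPM (edgeR adjusted p = 0.00469). The CTNNA1 call was lost without knockout replicate 1, 2 or 3 or parental replicate 4 or 5, at adjusted p = 0.0578 to 0.077, with no filter on low counts (0.142) and with library size only (0.153). CTNNB1, beta-catenin, which is closest to JUP, did not pass (log2 fold change 0.18, standard error 0.087), and with the block it passed as higher (0.18, standard error 0.037, edgeR adjusted p = 0.00237). Of 13 tested desmosome regulators 0 rose and 5 fell in edgeR, beside 0 and 6 at an unadjusted p under 0.05 and 0 and 6 by DESeq2. That is 38.5% beside 36.6% of all genes, and with the block 1 rose and 8 fell, beside 61.2% of all genes. PRKCA, protein kinase C alpha, which loosens desmosomes, was at 85.9 ± 12.6 CPM in knockout and 163 ± 18.3 CPM in parental cells (log2 fold change -0.92 ± 0.11 SE; edgeR adjusted p = 1.21e-04). ATP2A2, the calcium pump SERCA2 that is mutated in Darier disease, was at 321 ± 26.6 CPM in knockout and 442 ± 26.3 CPM in parental cells (edgeR adjusted p = 5.42e-04).

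Hemidesmosome genes, which attach epithelial cells to the basement membrane, had 2 of 9 higher and 4 lower, or 66.7% called beside 36.6% of all genes. With the block 4 were higher and 4 lower, beside 61.2% of all genes called. LAMB3, a laminin chain, was at 39.7 ± 4.73 CPM in knockout and 14.7 ± 2.98 CPM in parental cells, while the laminin chain LAMA3 was at 0.779 ± 0.189 CPM in knockout and 1.69 ± 0.318 CPM in parental cells (edgeR adjusted p = 2.97e-05 and 0.00156). COL17A1, the hemidesmosomal collagen, was at 3.41 ± 0.210 CPM in knockout and 5.02 ± 0.319 CPM in parental cells (edgeR adjusted p = 3.10e-04). Of 9 intercalated disc partners, genes that share the heart junction with desmosomes, 2 rose and 3 fell, or 55.6% beside 36.6% of all genes. With the block 2 rose and 6 fell, beside 61.2% of all genes called. TMEM43 was at 97.7 ± 3.02 CPM in knockout and 75.8 ± 3.70 CPM in parental cells, and the ankyrin ANK2 at 9.62 ± 2.61 and 4.47 ± 0.757 CPM (edgeR adjusted p = 4.25e-04 and 0.00116). The filamin FLNC was at 1575 ± 134 CPM in knockout and 2965 ± 386 CPM in parental cells, and ANK3 at 3.27 ± 0.863 and 7.88 ± 1.30 CPM (edgeR adjusted p = 4.32e-05 and 3.82e-04). Of the 4 PMP22 relatives of PERP, EMP3 rose to 186 ± 45.5 CPM in knockout, against 131 ± 22.7 CPM in parental cells, and EMP2 and PMP22 fell, to 28.6 ± 3.50 and 47.2 ± 3.18 CPM, against 40.6 ± 4.43 and 60.9 ± 6.72 CPM in parental cells (edgeR adjusted p = 0.0489, 0.00348 and 0.00657). With chromosome medians subtracted EMP3 and PMP22 no longer passed, at adjusted p = 0.193 and 0.505. The EMP3 call was also lost without any 1 of knockout replicates 1 to 3 or parental replicates 2 to 5, at adjusted p = 0.0671 to 0.127, and with DESeq2 size factors (0.0624). Of the 4 relatives 1 rose and 2 fell with genotype alone, or 75% beside 36.6% of all genes. With the block 1 of the 4 rose and 3 fell, beside 61.2% of all genes called.

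The genes whose log2 CPM followed a desmosome gene most closely over the 10 libraries were listed as a description, since all points share genotype and depth. For DSC3 they were GFRA1, FST and ADAMTS5, with Pearson's r from 0.998 to 0.999. For PKP2 they were PDGFRL, KLF5 and MCUR1, with r of 0.998 to 0.999, and KLF5 was also the gene of the transcription factor list with the largest fall. COL8A1, CORO1C and TOX were closest to DSP (r from 0.998 to 0.999), and TNKS1BP1, MRC2 and ALDH16A1 to PKP3 (r from 0.995 to 0.997).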

How the data were processed

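RNA from 5 CCAR1 knockout and 5 parental libraries was analysed. The authors deposited estimated counts per gene, which need not be whole, and kallisto 0.48.0 and hg38 are named per the submitters' processing notes. The sources used here give neither the annotation release nor any use of strand. Estimated counts were rounded. Genes passed filterByExpr (18979 of 62700), were scaled by TMM and tested with edgeR 4.0.16 (quasi-likelihood, genotype only, R 4.3.3), with Benjamini-Hochberg adjustment over all genes tested at 0.05. The code was tested on simulated data. Positions and lengths came from GENCODE 29, matched by gene ID. Alternatives were DESeq2 1.42.0, other scalings and filters, a replicate block, a depth term, each depth alone, chromosome medians subtracted, and each library left out.

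The genes and lists were chosen with earlier results of these data known. Named related genes were, in each list, up to 2 per direction with the smallest adjusted p past 0.05. One gene that this rule names is not reported here. For DSC3, PKP2, DSP and PKP3 the 3 genes with the highest r at a mean of at least 2 CPM were named, and the nearest gene tested on each side of the cadherin cluster.

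Same-numbered libraries of the 2 genotypes deviated together (r 0.586 to 0.898), as did libraries with other numbers at the same depth (0.595 to 0.900). Within a depth, same numbers had r of -0.0595 to -0.000997. Same numbers thus showed no pairing beyond depth, and the block stands in for depth. It is printed where it changes the call of a named gene or the count of a list. edgeR's common coefficient of variation between replicates was 0.310 with genotype alone and 0.0698 once depth was added.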

Additional observations from a re-analysis of the deposited data

Results flagged for a closer look

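The knockout change of PKP2 differed between the shallow and the deep libraries, by an interaction of genotype and depth of -1.388 on the log2 scale (standard error 0.17, edgeR adjusted p = 0.00266, n = 3 shallow and 2 deep libraries per genotype). PKP2 was 34.2-fold lower in knockout cells in the shallow set and 90.3-fold lower in the deep set. Over 14 alternatives the difference was -1.49 to -1.24 and its adjusted p 4.04e-13 to 0.0318. Its 3 shallow knockout libraries held 38.2 to 50.1 estimated counts of PKP2, and the deep ones 110 and 125. Transcripts of muscle, blood and liver were also higher in the shallow libraries, and their part in the difference was not tested.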

How the results depend on the processing

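DSC3, DSP, PKP2, PKP3 and PKP4 kept their direction and their call in all 20 alternatives, with log2 fold changes of -5.93 to -5.56, -2.03 to -1.65, -6.50 to -5.09, 0.78 to 0.98 and -1.0 to -0.89. The desmosome genes called higher were 2 in place of 1 with the replicate block, the depth term, either depth alone or chromosome medians subtracted. Those called lower were 4 to 5, also without any 1 library. Related genes called higher were 15 with the block, 16 with the depth term, 14 with shallow libraries alone and 20 with deep ones alone, and those lower 33, 33, 31 and 34, with 8 to 11 higher and 18 to 22 lower without 1 library. Neighbours on chromosome 18 called higher were 0 with no filter, with the filter of 1 CPM and in the shallow libraries, 2 in the deep ones and 0 to 1 without 1 library, and those lower 3 with the block, 4 with the depth term, 3 with shallow and 4 with deep libraries alone. PERP changed sign in the deep libraries alone (-0.028) and TTR without knockout replicate 2 (-0.046, and up to 0.91 without 1 other library). Interaction terms that changed sign were 0.015 for PKP3 with library size only, and for PKP4 -0.018 with no filter and -0.039 to 0.036 without 1 library. The cause of these changes was not tested. Other scalings moved the median of all genes by -0.03 and 0.06. DSC2, PKP1 and the other cadherins were too low to test, which limits them to the counts given.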
